A study of Homo sapiens with 12 samples.

Results

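The genes described here are 35 genes of glycolysis and of the response to low oxygen, measured in RNA that came down with an antibody to eIF4E or with IgG from MDA-MB-231 cells. Members were chosen by name, as the probe sets whose single gene in the array's annotation is on the list, with 24 genes of glycolysis and 11 other hypoxia genes kept apart. Of the 35 genes, 32 had at least 1 probe set of their own, which makes 57 of the array's 22277 probe sets. SLC16A1, SLC16A3 and CA9 were not analysed here. ALDOC, with signals between 16 and 79, and PFKFB4, with signals between 3.31 and 16, lay under the signal filter of 57.4. The other 30 were tested, 20 of glycolysis and 10 other hypoxia genes, among 7178 genes tested in all.

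MDA-MB-231 is an established human breast cancer cell line of mesenchymal, triple-negative type, and all 4 groups came from this single line, grown in DMEM with serum. The groups were IgG precipitates of untreated cells, IgG precipitates of irradiated cells, eIF4E precipitates of untreated cells and eIF4E precipitates of irradiated cells, with 3 arrays in each and 12 in all. Irradiated cells received 2 Gy of X-rays at 2.3 Gy per min, with a time of 6 h in the labels, and untreated cells received none. The precipitates were prepared with a commercial RIP-Chip kit, and 1 Affymetrix array of MAS5 signals stands for each. The design text calls the 3 arrays of a group biological replicates, but nothing says that they came from separate cultures, so the p-values measure only the spread between these arrays. No array of input RNA was used here, so a signal that differs between the antibodies cannot be set against the level of the mRNA in the cells.

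eIF4E holds on to the 5' cap of mRNAs and brings them to the ribosome, and it is the limiting factor of translation initiation for many mRNAs. IgG is the control for RNA that binds without regard to the antibody's target. Glycolysis takes glucose in through membrane transporters, splits it to pyruvate by a chain of cytosolic enzymes and, in many tumour cells, reduces the pyruvate to lactate even where oxygen is present. Under low oxygen the alpha subunits HIF1A and EPAS1 escape hydroxylation by EGLN enzymes, pair with ARNT and bind the core motif RCGTG near genes of glucose uptake, glycolysis, pH control and mitochondrial turnover.

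Promoters were searched for the hypoxia response core, which many but not all members held. The members were listed for glycolysis and the response to low oxygen, so an excess of this motif is not independent of that choice. For 31 of the 35 members the RefSeq table of GRCh38.p14 gave at least 1 start site (SLC2A3, SLC16A1, BNIP3L and NDRG1 were not used here). The 250 bases before each start were searched on both strands for ACGTG and GCGTG, the hypoxia response core, and for the E-box CACGTG, which holds ACGTG on both strands and so counts as 2 overlapping matches of the core. At least 1 match of the core lay in 34 of the members' 58 start sites (58.6%) and in 43.2% of all 35116 start sites. By gene, 26 of 31 members (83.9%) and 47.4% of all 27305 genes held one, and CACGTG lay in 7 of 31 members (22.6%) and in 7.73% of all genes. The members' promoters also had more G and C, with a median of 68.4% against 58% over all start sites, and members had more start sites per gene, and the part of either in the difference was not tested. The 3 windows printed here were picked because LDHA was lower with eIF4E, BNIP3 was higher, and PGK1 had probe sets in both directions, and all 3 genes hold the motif. Capitals mark each match on either strand.
LDHA: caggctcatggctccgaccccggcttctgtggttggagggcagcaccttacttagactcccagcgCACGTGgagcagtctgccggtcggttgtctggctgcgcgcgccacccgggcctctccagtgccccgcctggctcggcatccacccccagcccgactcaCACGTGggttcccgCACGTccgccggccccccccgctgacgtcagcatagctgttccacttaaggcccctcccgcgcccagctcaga
PGK1: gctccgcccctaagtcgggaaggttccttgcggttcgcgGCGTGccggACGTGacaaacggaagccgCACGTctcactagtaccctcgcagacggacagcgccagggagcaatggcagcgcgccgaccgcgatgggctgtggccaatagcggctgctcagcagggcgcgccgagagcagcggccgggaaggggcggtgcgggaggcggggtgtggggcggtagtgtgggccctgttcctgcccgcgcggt
BNIP3: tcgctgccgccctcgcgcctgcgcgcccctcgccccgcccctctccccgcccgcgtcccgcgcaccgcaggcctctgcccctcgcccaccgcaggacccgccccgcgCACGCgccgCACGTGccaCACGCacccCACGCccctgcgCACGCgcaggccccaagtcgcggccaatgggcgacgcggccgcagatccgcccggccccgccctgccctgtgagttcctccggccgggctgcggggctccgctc
The windows lie at chr11:18394313-18394562 on the plus strand (LDHA, the enzyme that turns pyruvate into lactate), at chrX:78103998-78104247 on the plus strand (PGK1, the first ATP-yielding enzyme of glycolysis) and at chr10:131981924-131982173 on the minus strand (BNIP3, a mitochondrial protein that promotes mitophagy), each ending just before the RefSeq start. The LDHA window held 5 matches, the PGK1 window 3 and the BNIP3 window 6. Among members called in the antibody comparison, 5 of 6 higher genes and 13 of 16 lower genes with a promoter in the table held the core. LDHB, P4HA2, PGAM1, PKM and SLC2A1 had no match in their windows.

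Several measures of the arrays moved with the antibody, and they stand beside every antibody result here. Over the 6 arrays of each antibody, the Alu control probe set read between 36876 and 53246 for IgG and between 13482 and 18476 for eIF4E, 2.70-fold apart. The 3'/5' ratio of the actin control probe sets lay between 2.96 and 5.38 (IgG) and between 1.33 and 1.53 (eIF4E), and the spiked hybridization controls were 6.08-fold higher with IgG (exact permutation test over arrays, two-sided, p = 0.00216 each, the smallest that 6 against 6 arrays allow). All arrays had been scaled to the same trimmed mean of 500.2, so signals are relative within an array. The part of these measures in the results was not tested. All 7 markers of MDA-MB-231 cells (VIM, CD44, CAV1, EGFR, MSN, AXL and LGALS1) were above the filter, and their signals summed to 73038 to 98781 per IgG array and 42080 to 51530 per eIF4E array. Of 7 luminal markers, ESR1, PGR, FOXA1 and CDH1 were under the filter and GATA3, KRT19 and EPCAM above it, and all 7 summed to between 3383 and 6546 (IgG) and between 3751 and 4991 (eIF4E). Of markers of other cell types, none of 7 for liver, of 6 for leukocytes or of 2 for erythroid cells passed the filter, against 1 of 7 for neuron and muscle (GAD1) and 2 of 4 for fibroblasts (COL1A2 and LUM). In such bulk precipitates, less RNA per cell and fewer cells contributing RNA cannot be told apart.

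The first comparison took the mean over untreated and irradiated cells. It asked which mRNAs gave higher or lower signals, relative to the rest of their array, with eIF4E than with IgG. Glucose transporters, hexokinases, lactate dehydrogenases and the HIF alpha subunits gave lower signals with eIF4E, while pyruvate kinase, liver-type phosphofructokinase, triosephosphate isomerase and glucose-6-phosphate isomerase gave higher ones. Of the 30 members tested, 24 passed an adjusted p of 0.05 (limma), where 70.7% of all genes tested did. The 24 were 6 higher and 18 lower, beside 32.5% and 38.2% of all genes. The members' median log2 difference was -0.43, against -0.07 over all genes. Signals of the 6 eIF4E arrays did not overlap those of the 6 IgG arrays for 14 of the 30, beside 49.9% of all genes, and 5 members were called and changed at least 2-fold, beside 26.2%. In glycolysis 4 of 20 were higher and 13 lower (median -0.52), and among the other hypoxia genes 2 of 10 were higher and 5 lower (median -0.30). Without replicate 1 of every group, whose arrays stand apart in a ratio of hybridization controls, 8 members were higher and 17 lower. The shares of all genes in that fit are not given here, and those above belong to the fit with replicate 1.

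**Figure D1:**
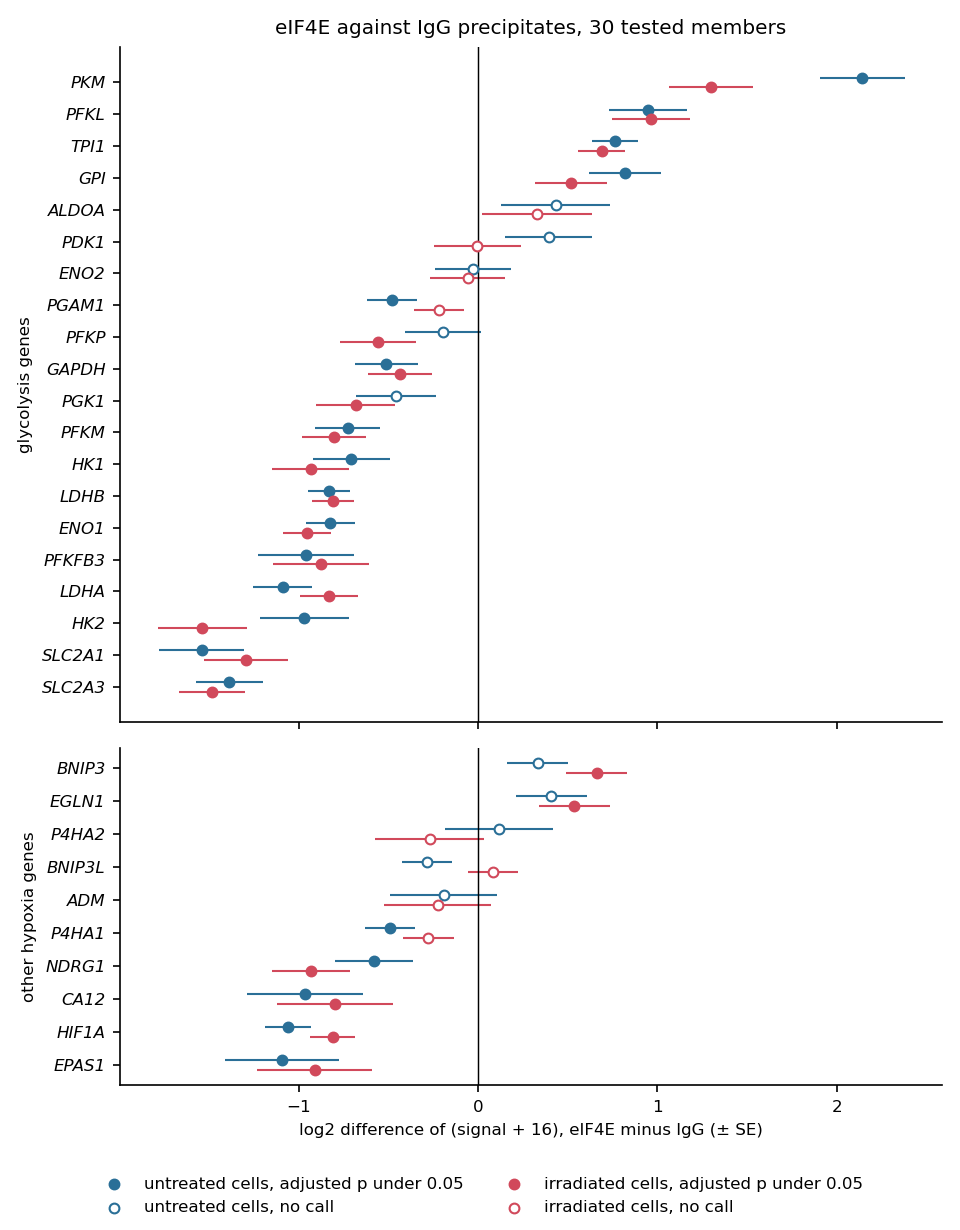
Log2 difference of (signal + 16) between eIF4E and IgG precipitates for the 30 tested members, with the SE of the limma fit, in untreated cells (blue) and irradiated cells (red). Filled points passed an adjusted p of 0.05 and open points did not. PKM lies farthest right in both treatments (2.14 and 1.30), and SLC2A1 and SLC2A3 lie far left in both treatments.

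Glucose transporters came first in the pathway and held the lowest values. SLC2A1 encodes GLUT1, the basal glucose transporter of most cells and a classical HIF target. In IgG precipitates SLC2A1 signals were 2970, 2277 and 2322 in untreated cells and 3863, 1632 and 2414 in irradiated cells. In eIF4E precipitates they were 1063, 709 and 812 in untreated cells and 1052, 959 and 994 in irradiated cells. Every eIF4E array lay below every IgG array, and the IgG arrays spread more widely, with replicate 1 highest. The log2 difference was -1.42 ± 0.17 (SE), 2.67-fold lower (adjusted p = 1.05e-06). SLC2A3 encodes GLUT3, a transporter with a higher affinity for glucose. Its signals were 403, 577 and 606 in untreated and 671, 550 and 596 in irradiated IgG precipitates, and 171, 235 and 169 in untreated and 201, 208 and 208 in irradiated eIF4E precipitates. The groups did not overlap, and SLC2A3 had the lowest log2 difference of the members, -1.44 ± 0.13 (adjusted p = 5.97e-08). Another probe set of SLC2A1 was lower too (-1.12), as was 1 of the other 2 of SLC2A3 (-0.93), while the remaining SLC2A3 probe set gave -0.28 and no call. A further 2 probe sets are assigned to both SLC2A3 and its near-identical neighbour SLC2A14, and they were left out of the tests. Their signals were 100 to 224 with IgG and 74 to 149 with eIF4E.

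Hexokinases, which trap glucose in the cell as glucose-6-phosphate, were lower with eIF4E in both tested forms. HK2 is the inducible, mitochondria-bound form common in tumours. HK2 signals were 424, 343 and 403 in untreated and 848, 442 and 432 in irradiated IgG precipitates. With eIF4E they were 255, 192 and 140 in untreated cells and 191, 189 and 154 in irradiated cells. No eIF4E array reached the lowest IgG array and irradiated IgG replicate 1 was well above the other IgG arrays. The log2 difference was -1.26 ± 0.18 (adjusted p = 7.48e-06), 2.39-fold lower. A dim second HK2 probe set, with signals between 5.80 and 88, did not pass the filter by itself, and averaging it in gave -0.38 and no call (adjusted p = 0.124). HK1, the constitutive form, read 1422 to 2894 with IgG and 846 to 1187 with eIF4E, without overlap, at -0.82 ± 0.15 (adjusted p = 0.000145).

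The next steps split in direction. GPI turns glucose-6-phosphate into fructose-6-phosphate. Its signals were 1183, 973 and 1040 in untreated and 2051, 1406 and 1021 in irradiated IgG precipitates, against 1711, 2085 and 1882 in untreated and 2106, 1746 and 2373 in irradiated eIF4E precipitates. Irradiated IgG replicate 1 was the only IgG array inside the eIF4E range, and GPI was higher with eIF4E at 0.67 ± 0.14 (adjusted p = 0.000512). Phosphofructokinase commits the sugar to glycolysis and is built from subunits of 3 genes, named for liver, muscle and platelet. The liver subunit PFKL read 217, 180 and 214 in untreated and 136, 159 and 234 in irradiated IgG precipitates, and 327, 391 and 523 in untreated and 396, 297 and 367 in irradiated eIF4E precipitates. All 6 eIF4E arrays lay above all 6 IgG arrays (0.96 ± 0.15, adjusted p = 3.25e-05), and its other probe set was higher as well (0.50). The muscle subunit PFKM went the other way, from 725 to 1344 with IgG to 433 to 617 with eIF4E, without overlap (-0.77 ± 0.13, adjusted p = 4.51e-05). The platelet subunit PFKP overlapped, at 2076 to 4821 with IgG and 1888 to 2328 with eIF4E. PFKP passed narrowly at -0.38 ± 0.15 (adjusted p = 0.0343).

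The PFKP call did not hold widely. Median centring gave -0.28 (adjusted p = 0.104), and the call was also lost when untreated IgG replicate 1 or 2, irradiated IgG replicate 1, any untreated eIF4E replicate or irradiated eIF4E replicate 2 was left out, with adjusted p from 0.0505 to 0.0908. PFKFB3 makes fructose-2,6-bisphosphate, the strongest activator of phosphofructokinase, and is induced by low oxygen. Its signals were 642 to 1215 with IgG and 315 to 729 with eIF4E. Only untreated eIF4E replicate 1, at 729, reached into the IgG range. PFKFB3 was lower at -0.92 ± 0.19 (adjusted p = 0.000392).

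Of the enzymes that split and rearrange the sugar, TPI1 was higher, and ALDOA made no call on its brightest probe set and was higher on its other one. ALDOA, the aldolase that cleaves fructose-1,6-bisphosphate, read 10744, 4582 and 4423 in untreated IgG precipitates and 11490, 6370 and 4910 in irradiated ones. With eIF4E it read 8251, 7655 and 8499 in untreated cells and 10949, 7225 and 9028 in irradiated cells. In both IgG groups replicate 1 was far above the other 2 arrays, and only these 2 arrays were as high as the eIF4E arrays. ALDOA gave 0.38 ± 0.22 (adjusted p = 0.125), and its other probe set was higher with eIF4E at 0.54 (adjusted p = 0.0328). Without untreated IgG replicate 1 it gave 0.59 (adjusted p = 0.00700), without irradiated IgG replicate 1 it gave 0.55 (0.0177), with the replicate block it gave 0.38 (0.0252), and without replicate 1 of every group it gave 0.68 (5.22e-05). TPI1 interconverts the 2 triose phosphates that aldolase makes. Its signals were 5704, 4929 and 4832 in untreated and 5787, 6080 and 4639 in irradiated IgG precipitates, against 9185, 8786 and 8262 in untreated and 8700, 8366 and 9435 in irradiated eIF4E precipitates. The groups were well apart, and TPI1 was higher by 0.73 ± 0.09 (adjusted p = 2.52e-06). Its other probe sets gave 0.45, a call, and 0.19, no call.

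GAPDH, PGK1 and PGAM1 carry the 3-carbon sugars to 2-phosphoglycerate, and GAPDH and PGK1 gave different values by probe set. GAPDH, which couples oxidation to phosphorylation, read 16294 to 25508 with IgG and 11570 to 16715 with eIF4E on its brightest probe set, an overlap, at -0.47 ± 0.13 (adjusted p = 0.00304). Its other probe sets gave -0.35, a call, and -0.13, no call. Quantile normalization brought GAPDH to -0.08 (adjusted p = 0.355), and the call was lost. PGK1, printed above for its promoter, read 16317, 12216 and 10458 in untreated and 25554, 12841 and 13335 in irradiated IgG precipitates. With eIF4E its signals were 9836, 8989 and 9086 in untreated cells and 11882, 8750 and 10174 in irradiated cells. Irradiated IgG replicate 1 was the highest array by a wide margin, and the 2 antibodies overlapped between 10458 and 11882. PGK1 was lower at -0.57 ± 0.16 (adjusted p = 0.00378) on this probe set, and the mean of its 4 probe sets, which include a dim one with signals between 3.25 and 76 that did not pass the filter by itself, gave 0.076 (adjusted p = 0.705). PGAM1, the mutase that moves the phosphate, read 10525 to 15466 with IgG and 9244 to 11313 with eIF4E (-0.35 ± 0.10, adjusted p = 0.00474).

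The lower end of the pathway held the highest value of the 30 members. ENO1, the enolase of most tissues, read 22658, 23373 and 22475 in untreated and 34219, 27324 and 22741 in irradiated IgG precipitates. With eIF4E it read 12490, 13138 and 13045 in untreated cells and 15213, 13183 and 14515 in irradiated cells. The antibodies did not overlap on this probe set (-0.89 ± 0.10, adjusted p = 3.79e-07). ENO2, the neuronal enolase that low oxygen also induces, showed no call at -0.04 ± 0.15, with 360 to 650 with IgG and 403 to 546 with eIF4E. PKM encodes pyruvate kinase, whose M2 splice form is typical of tumour cells, and these probe sets do not tell the splice forms apart by name. PKM signals were 617, 697 and 760 in untreated and 1364, 1330 and 702 in irradiated IgG precipitates. With eIF4E they were 2288, 3370 and 3859 in untreated cells and 2472, 2414 and 3281 in irradiated cells. The lowest eIF4E array, 2288, stood well above the highest IgG array, 1364. PKM was 3.30-fold higher (1.72 ± 0.17, adjusted p = 1.17e-07), and averaging in a dim second probe set lowered this to 0.56 (adjusted p = 0.00258).

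Lactate dehydrogenase, which regenerates NAD by reducing pyruvate, was lower with eIF4E in both subunits. LDHA, whose promoter is printed above with 5 matches, read 36650, 33153 and 27706 in untreated and 40038, 29487 and 28501 in irradiated IgG precipitates. With eIF4E it read 17847, 12597 and 15497 in untreated cells and 19551, 15923 and 19149 in irradiated cells. All IgG arrays were above all eIF4E arrays, and replicate 1 was the highest of its group in all 4 groups. LDHA was lower at -0.96 ± 0.12 (adjusted p = 1.36e-06). LDHB, the subunit that favours lactate oxidation and has no match of the motif in its window, read 15555 to 20840 with IgG and 9057 to 11276 with eIF4E (-0.82 ± 0.08, adjusted p = 1.65e-07). The other LDHB probe set was lower by less, at -0.30 (adjusted p = 0.0129), and its arrays overlapped. PDK1, the kinase that shuts pyruvate dehydrogenase and so spares pyruvate for lactate, gave no call at 0.19 ± 0.17, with signals of 64 to 109 with IgG and 84 to 128 with eIF4E. Quantile normalization shrank the difference of the brightest members, to -0.18 for LDHA (adjusted p = 0.0220) and -0.40 for ENO1 (adjusted p = 0.00385).

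**Figure D2:**
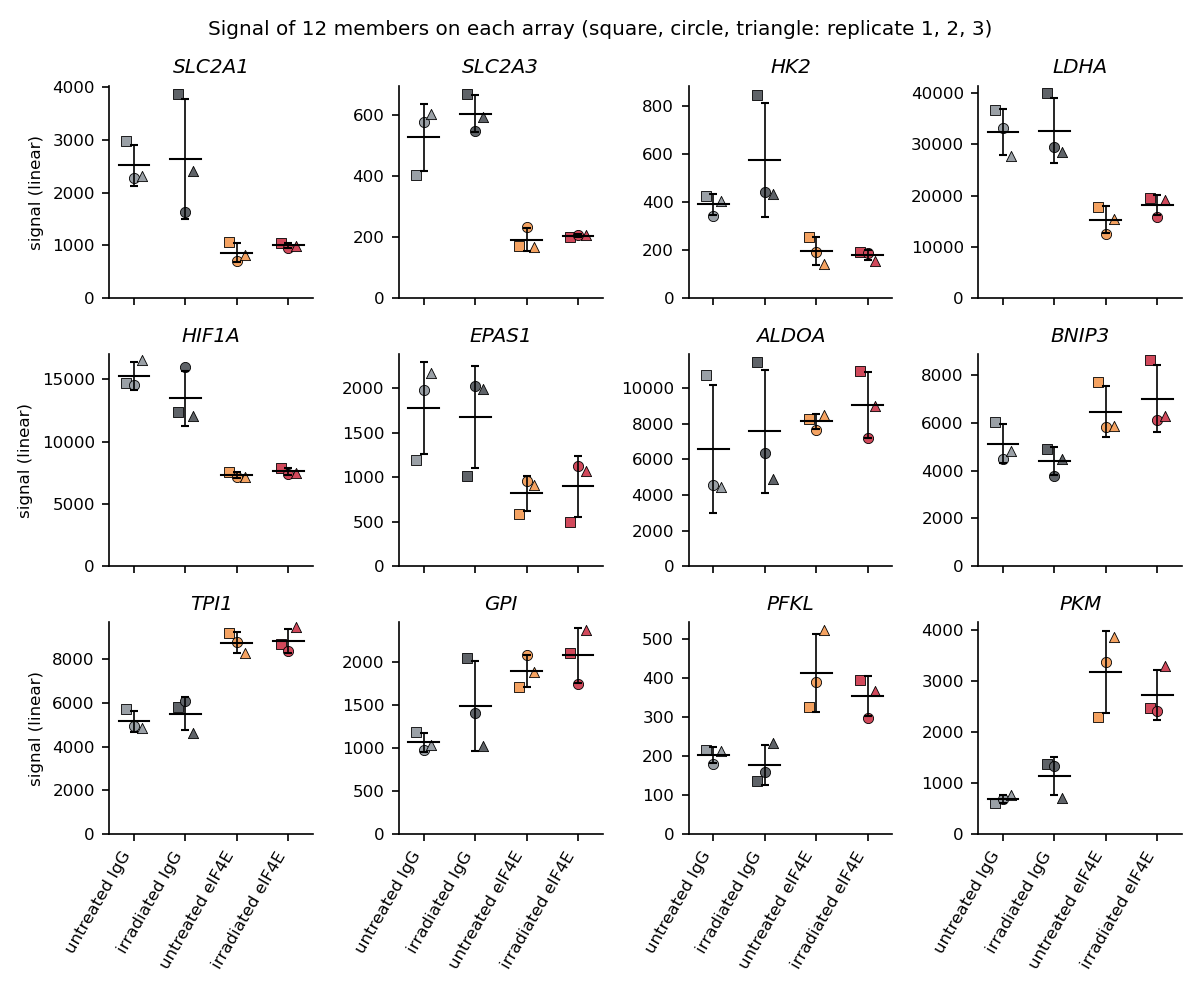
Linear MAS5 signal of 12 members on each of the 12 arrays, by group, with the mean (line) and SD (bar, n = 3) and replicates 1, 2 and 3 as squares, circles and triangles; each axis starts at 0. SLC2A1, SLC2A3, HK2, LDHA and HIF1A lie lower on every eIF4E array than on any IgG array, and TPI1, PFKL and PKM lie higher. The squares are the lowest of every group in EPAS1 and the highest of every group in SLC2A1, HK2, LDHA and BNIP3.

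The HIF alpha subunits themselves were lower with eIF4E. HIF1A encodes the subunit that drives the acute response to low oxygen. HIF1A signals were 14737, 14549 and 16552 in untreated and 12356, 16005 and 12038 in irradiated IgG precipitates. With eIF4E they were 7585, 7148 and 7186 in untreated cells and 7892, 7423 and 7503 in irradiated cells. The eIF4E arrays lay close together and far below the IgG arrays, at -0.94 ± 0.09 (adjusted p = 1e-07). EPAS1 encodes HIF-2 alpha. Its signals were 1197, 1978 and 2166 in untreated and 1012, 2026 and 1996 in irradiated IgG precipitates, and 588, 953 and 911 in untreated and 499, 1121 and 1068 in irradiated eIF4E precipitates. Replicate 1 was the lowest of its group in all 4 groups, so the antibodies overlapped across replicates, while each eIF4E array was below the IgG array of the same number and treatment. EPAS1 was lower at -1.0 ± 0.23 (adjusted p = 0.000816), and averaging in a dim second probe set gave -0.28 and no call (adjusted p = 0.270). EGLN1, the prolyl hydroxylase that marks the alpha subunits for destruction and is itself a HIF target, was higher at 0.47 ± 0.14 (adjusted p = 0.00654), with signals of 284 to 455 with IgG and 386 to 610 with eIF4E. Its probe set, like the only ones of ALDOA, GAPDH and LDHB, ends in _x_at, the array's mark for probes that can also match other transcripts.

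BNIP3 and BNIP3L are related mitochondrial proteins that promote mitophagy under low oxygen, and they differed. BNIP3, whose promoter window held 6 matches, read 6060, 4508 and 4835 in untreated and 4924, 3783 and 4483 in irradiated IgG precipitates. With eIF4E it read 7733, 5816 and 5886 in untreated cells and 8640, 6115 and 6282 in irradiated cells. Only untreated IgG replicate 1 overlapped the eIF4E arrays, and BNIP3 was higher at 0.50 ± 0.12 (adjusted p = 0.00145). A second BNIP3 probe set was farther apart, with signals between 1159 and 1895 for IgG and between 3418 and 5738 for eIF4E, without overlap (1.55 ± 0.15, adjusted p = 1.57e-07). BNIP3L gave -0.10 ± 0.10 and no call on its brightest probe set (2269 to 3779 with IgG, 2217 to 2815 with eIF4E), and its other probe set was lower at -0.33 (adjusted p = 0.0170).

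The remaining hypoxia genes act outside the mitochondria. CA12, a membrane carbonic anhydrase that controls pH outside the cell, read 380 to 852 with IgG and 181 to 435 with eIF4E, an overlap, and was lower at -0.88 ± 0.23 (adjusted p = 0.00247). Of its other probe sets, 3 were lower as well (-0.75, -0.69 and -0.63) and 1 gave -0.34 and no call, while a dim one, with signals between 4.08 and 57, did not pass the filter by itself. Averaging all of them gave -0.56 (adjusted p = 0.0160). NDRG1, a stress-induced growth regulator, read 1793 to 2744 with IgG and 847 to 1568 with eIF4E, without overlap (-0.76 ± 0.15, adjusted p = 0.000339). P4HA1 and P4HA2 are the catalytic subunits of collagen prolyl hydroxylase. P4HA1 read 1159 to 1489 with IgG and 871 to 1094 with eIF4E, without overlap (-0.38 ± 0.10, adjusted p = 0.00250). P4HA2 gave -0.08 ± 0.21 and no call, with irradiated IgG replicate 1 at 2277 and the other IgG arrays at 769 to 1055, and without replicate 1 of every group it turned to 0.37 (adjusted p = 0.0190). ADM, a vasodilator peptide, gave -0.21 ± 0.21 and no call, at 822 to 2035 with IgG and 825 to 1783 with eIF4E.

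Probe sets of one gene did not always move together. Of 51 member probe sets tested by themselves, 12 were higher, 26 lower and 13 not called, beside 29.8% higher and 36.6% lower of the 11438 tested on the array. Of 10 members with more than 1 called probe set, 2 had calls in opposite directions, beside 17.2% of 1457 such genes. ENO1 was one of them, with -0.89 on its brightest probe set, 0.25 on another (adjusted p = 0.0458) and 0.27, no call, on a dim one. PGK1 was the other, with -0.57 on its brightest, 0.37 on another (adjusted p = 0.0374) and 0.18, no call, on the other one tested. The mean of the probe sets gave no call for either gene, and for ENO1 it was -0.12 (adjusted p = 0.408). Where these probe sets lie along their transcripts is not used here.

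GAPDH offers a check by position, because the array carries control probe sets at its 5' end, its middle and its 3' end. The 5' probe set read 6834 to 10598 with IgG and 10461 to 11792 with eIF4E, with a small overlap, and was 0.36 higher in log2 (exact two-sided permutation test over arrays, p = 0.00433, adjusted over 3 tests 0.00649). The middle probe set read 8989 to 13357 with IgG and 10493 to 12977 with eIF4E, a difference of 0.01 (exact p = 0.911). The 3' probe set read 15607 to 27067 with IgG and 12246 to 15467 with eIF4E, without overlap, a difference of -0.59 (exact p = 0.00216, adjusted 0.00649). Signals of the same gene thus were higher at 1 end and lower at the other, and the values had the same order within each treatment, with 0.32, 0.004 and -0.56 in untreated cells and 0.39, 0.02 and -0.61 in irradiated cells. Quantile normalization brought the 3' value to -0.20 (exact p adjusted 0.0714). The 3' to 5' ratio of GAPDH was 2.03 to 2.78 on IgG arrays and 1.13 to 1.31 on eIF4E arrays, and its part in the other members' values was not tested.

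**Figure D3:**
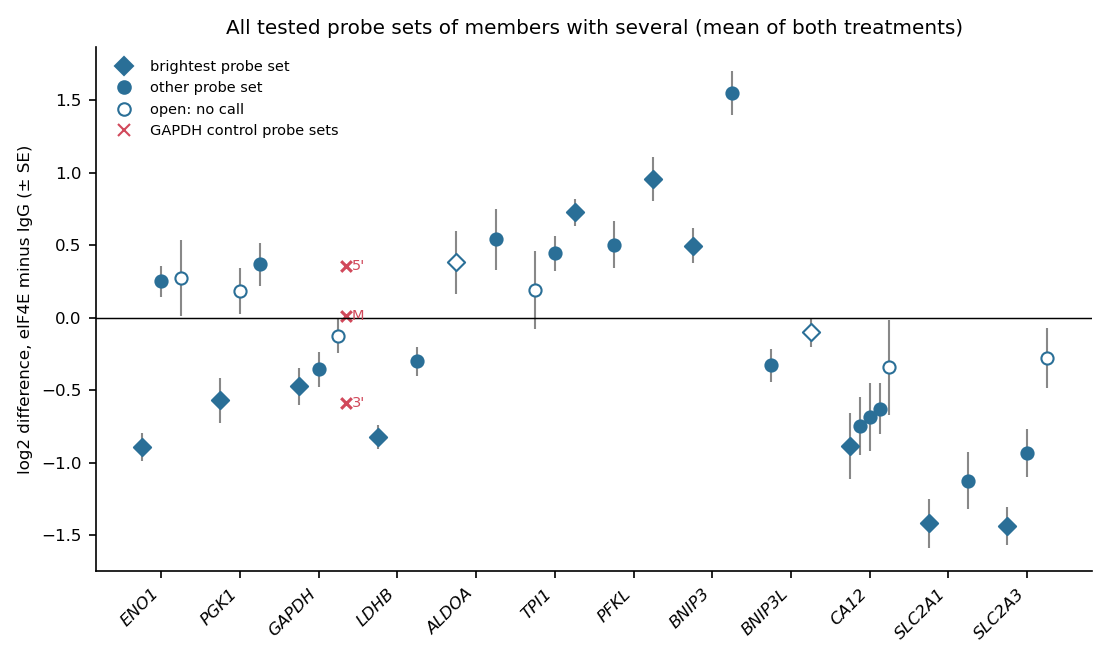
Log2 difference between eIF4E and IgG, as the mean of both treatments with the SE of the limma fit, for every tested probe set of the 12 members with more than 1 tested. Diamonds are brightest probe sets, with _x_at sets considered only in the absence of others, so TPI1 and CA12 have brighter _x_at sets among the circles. Circles are the other probe sets, and open symbols made no call. Red crosses are the GAPDH control probe sets at the 5' end, middle (M) and 3' end. ENO1 and PGK1 have filled symbols on both sides of 0, and the GAPDH crosses run from 0.36 to -0.59.

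Taken within each treatment, the antibody comparison called 20 members in untreated cells (4 higher and 16 lower, beside 58.9% of all genes called, 27.2% higher and 31.7% lower) and 22 in irradiated cells (6 higher and 16 lower, beside 59.5%, 27.2% higher and 32.3% lower). Arrays did not overlap for 20 members in untreated cells, beside 66.7% of all genes, and for 19 in irradiated cells, beside 62.4%. The values of the 2 treatments come from separate arrays. SLC2A1 gave -1.54 ± 0.24 in untreated and -1.29 ± 0.24 in irradiated cells, SLC2A3 gave -1.39 ± 0.19 and -1.49 ± 0.19, and HIF1A gave -1.06 ± 0.13 and -0.81 ± 0.13. HK2 gave -0.97 ± 0.25 and -1.54 ± 0.25 in the same order. PKM gave 2.14 ± 0.24 in untreated and 1.30 ± 0.24 in irradiated cells. The difference between these, -0.84 ± 0.33, had an unadjusted p of 0.0219 in the limma fit and an adjusted p of 0.999, so the interaction did not pass. On their brightest probe sets, BNIP3, PGK1, PFKP and EGLN1 passed in irradiated cells and not in untreated cells. P4HA1 and PGAM1 passed in untreated cells and not in irradiated cells, but no interaction passed for any member. The second BNIP3 probe set was higher in untreated cells as well (1.48, adjusted p = 2.67e-05, limma). Another PGK1 probe set was called there in the direction opposite to its brightest (0.51, adjusted p = 0.0485). With the replicate number as a block, BNIP3 (adjusted p = 0.0154) and PGK1 (adjusted p = 0.0142) passed in untreated cells too, although same-numbered arrays of these groups did not all deviate together. Of the calls in irradiated cells, that of PGK1 was lost without irradiated IgG replicate 1 or irradiated eIF4E replicate 2 (adjusted p 0.0830 and 0.0639). That of PFKP was lost without irradiated IgG replicate 1 or irradiated eIF4E replicate 2 or 3 (0.0564 to 0.195), and that of EGLN1 without irradiated IgG replicate 1 or 2 or irradiated eIF4E replicate 2 or 3 (0.0555 to 0.149).

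Irradiation was compared within each antibody, which asks whether 2 Gy changed relative signals in the eIF4E precipitates and in the IgG background. No member passed in either, and no gene of the 7178 did (0% called, limma). Among eIF4E precipitates 0 members had an unadjusted p under 0.05, beside 1.14% of all genes (82). The members' log2 differences ran from -0.45 ± 0.22 for NDRG1 to 0.26 ± 0.16 for LDHA, with a median of 0.09. By brightest probe set, ENO1 (0.15 ± 0.14) and LDHB (0.21 ± 0.12) were the 2 members whose irradiated eIF4E arrays all lay above the untreated ones. This stands beside 9.4% of genes without overlap in either direction. HIF1A gave 0.06 ± 0.13, SLC2A1 0.23 ± 0.24 and PKM -0.20 ± 0.24 on their brightest probe sets. Other probe sets of SLC2A1 (0.37 ± 0.28) and ENO1 (0.20 ± 0.37) also had all irradiated eIF4E arrays above the untreated ones. Another of PGK1 (-0.25 ± 0.23) had all of them below, and none of these was called.

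Among IgG precipitates 3 members had an unadjusted p under 0.05 on their brightest probe sets, beside 6.62% of all genes (475), and none passed adjustment. BNIP3L was -0.43 ± 0.14 (unadjusted p = 0.00742, adjusted p = 0.619, limma), with 3779, 2958 and 2792 in untreated and 2269, 2421 and 2314 in irradiated cells. All 3 irradiated IgG arrays of BNIP3L were thus below the untreated ones. PKM was 0.64 ± 0.24 (adjusted p = 0.631), with irradiated replicates 1 and 2 at 1364 and 1330 and replicate 3 at 702, inside the untreated range. GPI was 0.43 ± 0.20 (adjusted p = 0.731), and HK2, at 0.47 ± 0.25, was the only member whose irradiated IgG arrays all lay above the untreated ones (8.68% of genes did not overlap in either direction). For the difference of both irradiation effects, 1 member, PKM, had an unadjusted p under 0.05 on its brightest probe set. This stands beside 3.01% of all genes (216), and none passed. A dim other probe set of TPI1 gave -1.18 for irradiation among IgG precipitates (unadjusted p = 0.00627, adjusted p = 0.507, limma). Its signals were 125, 133 and 69 in untreated and 24, 66 and 31 in irradiated cells. Its difference of the irradiation effects was 1.38 (unadjusted p = 0.0194, adjusted p = 0.999).

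**Figure D4:**
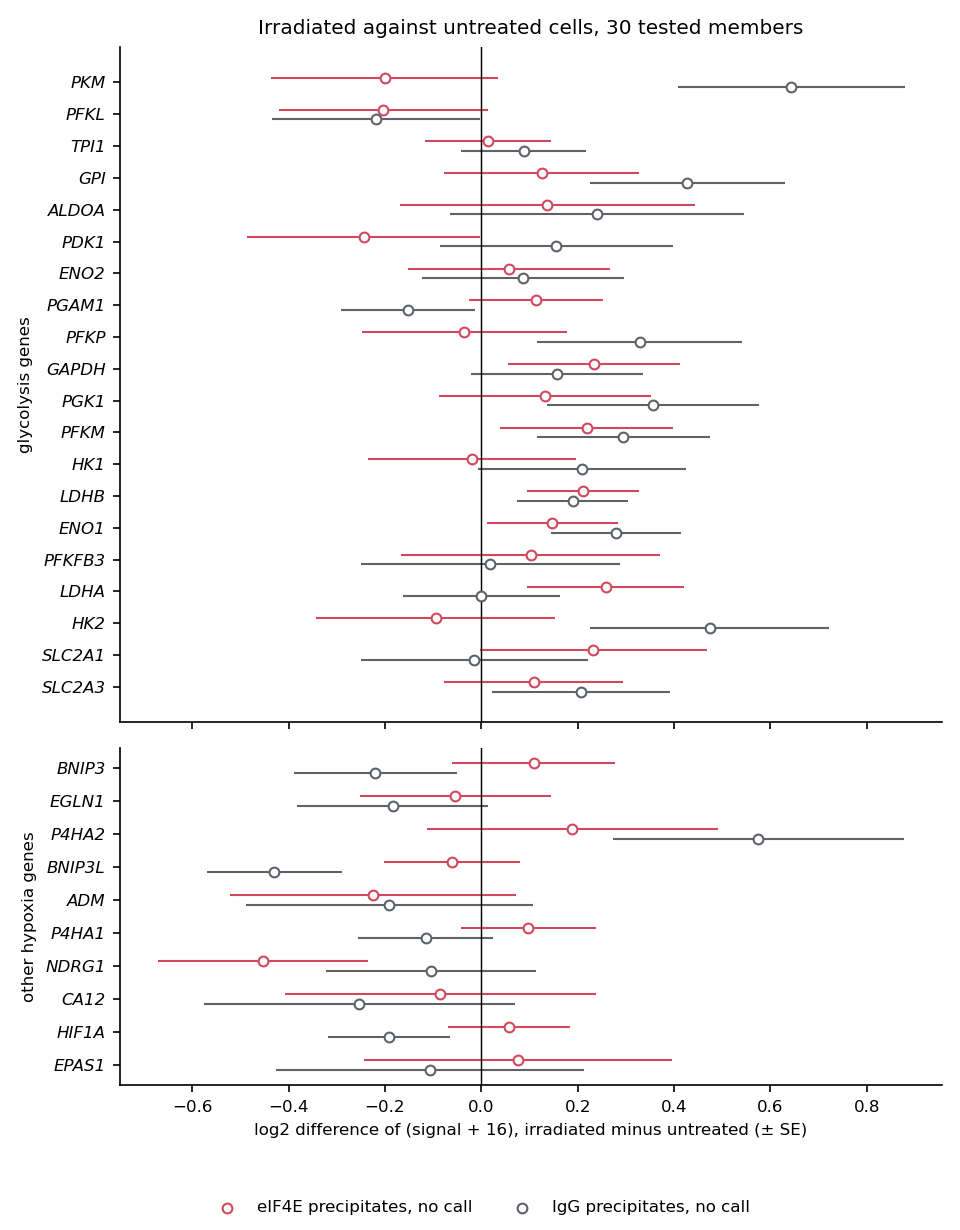
Log2 difference of (signal + 16) between irradiated and untreated cells for the 30 tested members, with the SE of the limma fit, in eIF4E precipitates (red) and IgG precipitates (grey). All points are open because no member passed an adjusted p of 0.05; the eIF4E values lie between -0.45 (NDRG1) and 0.26 (LDHA).

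Some members differed between replicate 1 and the other arrays in every group. Replicate 1 was the highest array of its group in all 4 groups for 7 of the 30 members, SLC2A1, HK2, GAPDH, PGK1, LDHA, BNIP3 and NDRG1, beside 5.13% of all genes tested. It was the lowest in all 4 groups for EPAS1, CA12 and ADM, beside 8.18% of all genes. The mean log2 excess of replicate 1 over the other 2 was 0.48 for SLC2A1, 0.49 for PGK1, 0.49 for NDRG1 and 0.31 for LDHA. It was larger for ALDOA (0.69) and PFKFB3 (0.54), where replicate 1 was not the highest array of every group. The mean deficit was -0.88 for EPAS1, -0.78 for ADM and -0.69 for CA12. The ratio of the hybridization controls bioB and bioC was 0.368 to 0.443 on the replicate 1 arrays and 0.0284 to 0.0496 on all others, so these 4 arrays also stand apart in a measure that holds no cellular RNA. The part of this difference in the members' values was not tested.

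**Figure D5:**
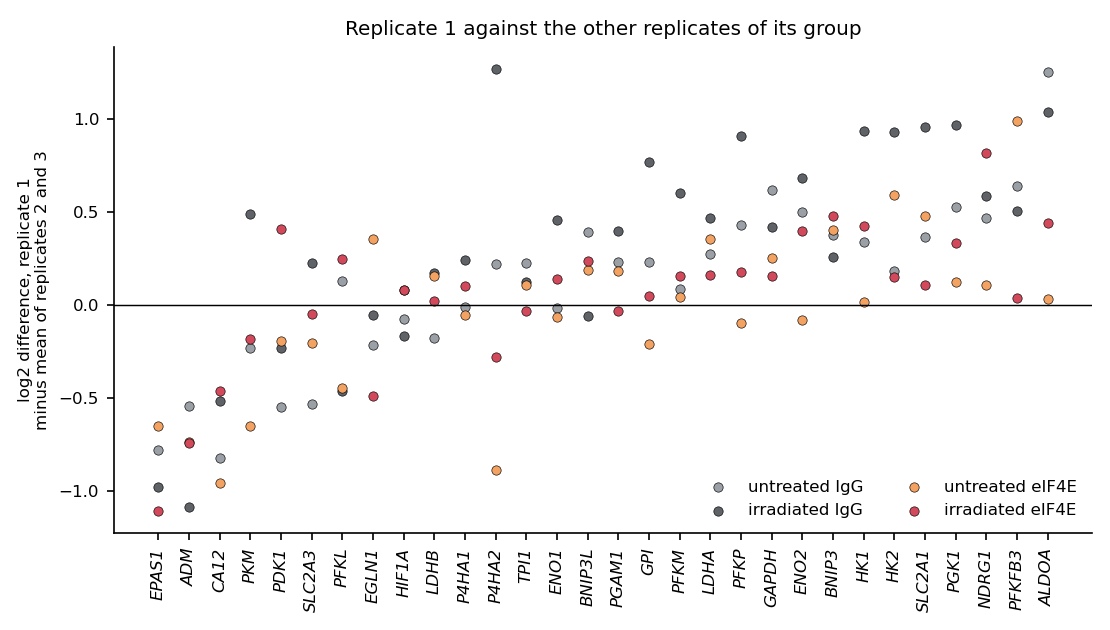
Log2 difference between replicate 1 and the mean of replicates 2 and 3 of the same group, for the 30 tested members in order of their mean over the groups, with 1 point for each of the 4 groups. EPAS1, ADM and CA12 have all 4 points below 0 at the left, and SLC2A1, PGK1, NDRG1, HK2, BNIP3, GAPDH and LDHA have all 4 above it. HK1, PFKM, PFKFB3 and ALDOA also have all 4 above 0, although replicate 1 was not their highest array in every group.

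Lists of genes around the pathway, which hold no member, were read in the same comparison. Of 19 tested genes from a list of further hypoxia-induced genes, 12 were lower with eIF4E and 4 higher (median -0.67), from TFRC, the transferrin receptor (-1.63), and LOX, the collagen cross-linking oxidase (-1.26), to HMOX1, heme oxygenase (0.48), and MIF, a cytokine (1.59). Of 11 genes of oxygen sensing and HIF control, 5 were higher and 4 lower (median 0.27). CREBBP, a coactivator of HIF (-1.47), and HIF1AN, the asparaginyl hydroxylase of HIF alpha (-1.06), were at one end, and SIAH2, a ligase for EGLN proteins (1.11), and RBX1, the RING subunit of the VHL ligase (1.67), at the other. Of 6 genes of the pentose phosphate pathway, which branches off at glucose-6-phosphate, 5 were higher and none lower (median 0.49), led by PGLS, the lactonase (1.26), with TKT, transketolase, at -0.16 and no call. Of 10 genes of pyruvate dehydrogenase and its regulators, 6 were higher and 4 lower (median 0.45), from PDP1, its phosphatase (-1.43), to PDK2, a kinase of the complex (1.41). Of 14 citric acid cycle genes, 6 were higher and 3 lower (median 0.12), from ACO1, the cytosolic aconitase (-0.79), to IDH3G, a subunit of isocitrate dehydrogenase (1.39). Each of these counts stands beside 32.5% higher and 38.2% lower of all genes and a median of -0.07.

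Isoenzymes known mainly from other tissues were read as well. Of 12 listed, 10 had a probe set and 3 passed the filter. FBP1, the gluconeogenic bisphosphatase, had a median signal of 739 (397 to 1446) and was higher with eIF4E (1.37). LDHC of testis (median signal 101, log2 difference 0.22) and ENO3 of muscle (median signal 78.7, log2 difference -0.14) were nearer the filter and made no call. HK3, PKLR, PGAM2, GAPDHS, SLC2A2, SLC2A4 and FBP2 were under the filter, with median signals of 1.18 to 13.5.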

How the data were processed

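RNA of eIF4E and IgG precipitates was measured on 12 Affymetrix arrays. The deposited table holds 1 intensity per probe set and array on a linear scale, made by the authors with MAS5 per the submitters' processing notes. The MAS5 version, the RNA amount and any amplification are not given in the sources used here. Groups and replicate numbers were taken from the titles in the labels. Signals were used as deposited. The number of arrays limits the precision.

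The array's annotation, which can be old, pairs 19064 of the 22277 probe sets with 1 gene symbol, 1043 with more than 1 and 2108 with no symbol, beside 62 controls. RefSeq (GRCh38.p14) gave current names for 19052 of them through their gene identifiers. Tests used only probe sets of 1 gene. For each of 11963 genes the brightest probe set was used (_x_at sets only in the absence of others), and 7178 genes with a mean log2 signal above the 40th percentile were tested. A linear model of the 4 group means over all 12 arrays was fitted to log2(signal + 16) by limma 3.58.1 (R 4.3.3), with eBayes and its trend option. P-values were adjusted with Benjamini-Hochberg over all genes tested, and a call is an adjusted p under 0.05. Differences on this scale understate the change of dim genes. For control probe sets and array measures, two-sided exact permutation tests over arrays were used. The scripts were first tested on simulated data with known changes. Figures were drawn with matplotlib 3.10.9.

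All 35 members are named, and for each list of other genes up to 2 members at either end of the tested range. The members, lists and rule were chosen with earlier results of these data known. Single arrays, array pairs and probe sets pointed out in the text were chosen after their values were seen.

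Same-numbered arrays of untreated and irradiated eIF4E precipitates deviated together from their group means (correlations over genes of 0.374, 0.208 and 0.181). Deviations within a group cancel out, so an offset shared by the replicate 1 arrays could also give positive values for the other numbers. Differently numbered arrays were not compared, so these values cannot decide on pairing, and the labels do not speak of pairs. The values reported come from the fit without pairs, and the fit with the replicate number as a block is an alternative, which changed no call of a member for irradiation. For the remaining 5 pairs of groups, 1 or more numbers correlated under 0.1. The alternatives changed the pseudocount (1 or 64), the filter (none, or the 60th percentile), the scaling (quantile normalization or median centring) and the fit (array quality weights, no variance trend, the replicate number as a block, or the compared groups alone). Others took the mean of a gene's probe sets, tested every probe set, asked for a change of 1.5-fold, or left out single arrays or replicate 1 of every group. Protein sequences were not used here.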

Additional observations from a re-analysis of the deposited data

How the results depend on the processing

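Across the 6 comparisons, 4475 of 4608 recomputed member results kept their side of the threshold, and kept their direction where called. Another 104 lost and 27 gained a call, and 2 changed direction with a call in 1 of the fits. Those 2 were PGK1 with probe set means (0.076, adjusted p = 0.705) and P4HA2 without replicate 1 of every group (0.37, adjusted p = 0.0190). Direction was not counted where neither fit made a call, and there it could turn. ENO2 in the mean antibody comparison gave -0.04, and 0.096 with quantile normalization. In the mean antibody comparison 18 of 30 members kept their call in every alternative. The number of members called was 23 to 24 there when 1 array was left out, 18 to 22 in untreated cells, 17 to 22 in irradiated cells and 0 for irradiation. With the replicate block the counts were 25 in the mean comparison (ALDOA gained), 22 in untreated cells (BNIP3 and PGK1 gained), 22 in irradiated cells and 0 for irradiation, and no other call of a member changed. A 1.5-fold minimum left 17 members and probe set means 20. For the antibody comparisons, the shares of all genes called under these alternatives are not given here. The counts thus compare settings for the members alone. Genes called for irradiation were 2 among eIF4E precipitates with array quality weights, and 1 among IgG precipitates with no variance trend, with probe set means or without untreated IgG replicate 1. The 3' GAPDH control probe set gave -0.20 with quantile normalization (exact test, adjusted p = 0.0714). The causes were not tested. The median of all genes was -0.07 as deposited, 0.01 after quantile normalization and 0.03 after median centring, and in untreated cells it moved from -0.08 to 0.05 with centring. Signals near the filter, such as those of PDK1, limit what could be detected.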
